A study of Homo sapiens with 8 samples.

Results

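Messenger RNA abundance was compared between T3M4 cells that carry a guide RNA against METTL13 (sgMETTL13) and T3M4 cells that carry a non-targeting control guide (sgControl). T3M4 is a long-established line of human pancreatic cancer cells. Poly(A) RNA-seq was made from 2 libraries of each group, and these 4 libraries of the 8 in the series are described here. The other 4 hold ribosome footprints of the same groups and serve only as a second readout. Both groups went 18 h without serum and were lysed 2 h after 10% fetal bovine serum (FBS) was added, so every library is a serum-treated one and no library measured the cells before serum. The nuclease that used the guide, the site it targets and whether each group is a clone or a pool are not given in the sources used here. Nothing states that the numbered replicates came from separate cultures, so their spread may be technical and p-values measure that spread alone. The members are all 14668 gene symbols of the count table. Of these, 12468 had enough counts for a test, and in 637 both sgMETTL13 libraries lay above both sgControl libraries while in 853 both lay below.

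METTL13 adds methyl groups to the N terminus and to a lysine residue of eEF1A, the elongation factor that brings aminoacyl-tRNA to the ribosome. It acts on a protein of the translation machinery, and mRNA abundance shows which transcripts differed in amount alongside any difference in their translation. Serum given to starved cells activates ERK signalling, which helps to switch on immediate early transcription factors such as EGR1 and FOS through the serum response factor. A second set of serum genes encodes secreted growth factors and matricellular proteins, among them CCN1, CCN2, HBEGF and AREG.

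RNA libraries totalled 20860953 to 48353722 counts and had at least 1 count in 13548 to 13922 genes. A count of 0 allows up to 3 counts, or 0.062 to 0.144 CPM (a gene's counts scaled to the total of its library) depending on the library, for counting error only. The 50 genes with the most counts took 12.7% of the counts in sgMETTL13 replicate 1 and 15.2% to 16.1% in the other 3 libraries. The sgMETTL13 replicates stood apart from each other. Of the genes tested, 2492 (19.99%) differed by more than 2-fold between them, 2449 being higher in replicate 1, against 124 (0.995%) between the sgControl replicates. In the values below, replicate 1 is given before replicate 2, and CPM are scaled by TMM factors, which correct for differences in library composition.

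METTL13 mRNA, the targeted transcript (chromosome 1, 171781660 to 171797716 in GRCh38.p14), read 89.7 and 71.4 CPM in sgControl against 25.2 and 35.1 CPM in the sgMETTL13 libraries. Both sgMETTL13 libraries lay below both sgControl libraries, and the higher sgMETTL13 value was 2.02-fold under the lower sgControl value once 0.5 CPM was added to each. This was the widest gap in either direction among genes with a mean of at least 5 CPM. The log2 fold change was -1.42 (SE 0.406) and did not pass over all genes (edgeR quasi-likelihood adjusted p = 1). Without sgMETTL13 replicate 2 it was -1.68 and passed. EEF1A1, which encodes the main substrate, read 10796 and 9232 CPM against 9049 and 9157 CPM, and all that separated the groups was a difference of 0.01 on the log2 scale between the closest libraries. EEF1A2, the paralog known from brain and muscle, read 17.6 and 22.9 CPM against 17.1 and 23.6 CPM, so its groups overlapped. Of the 4 other methyltransferases of eEF1A in the table, EEF1AKMT2 read 11.9 and 11.8 CPM in sgControl against 24.03 and 13.5 CPM in the sgMETTL13 libraries, both above the controls, with replicate 1 much farther out than replicate 2. EEF1AKMT1, EEF1AKMT3 and EEF1AKMT4 had groups that overlapped, with log2 fold changes of -0.11, -0.01 and -0.05.

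The mRNA profile was that of an epithelial line with keratins of simple and of stratified epithelium. KRT19 read 1514 and 1758 CPM, KRT8 923 and 1138 CPM and KRT18 806 and 784 CPM in the controls, and the adhesion genes EPCAM and CDH1 read 119.6 and 131 CPM and 219 and 299 CPM. Of 22 genes of the basal-like (squamous) subtype of pancreatic cancer, 17 were tested, 15 of them had at least 1 CPM in both controls and 9 had at least 100 CPM. The stratified keratin genes KRT17, KRT5 and KRT6A read 4726 and 5361 CPM, 2974 and 2796 CPM and 1528 and 1755 CPM, and TP63, the transcription factor of basal epithelium, read 181 and 278 CPM. The classical subtype looked different. Of its 20 genes 10 are not analysed here and 5 were tested, led in counts by GATA6 at 21.2 and 29.2 CPM in the controls, and HNF4A had 0 to 3 counts per library. Mesenchymal transcripts were also read, with VIM at 33.3 and 38.4 CPM, CDH2 at 10.7 and 8.62 CPM and FN1 at 6.70 and 7.66 CPM. ZEB1 was close to the counting floor, at 0.188 and 0.144 CPM, where 3 counts correspond to 0.082 and 0.144 CPM.

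Many defining markers of other cell types were at or near 0. The neural and embryonic kidney list differed, as 5 of its 7 genes in the table had at least 1 CPM in both controls. The leukocyte gene PTPRC had 0 to 2 counts per library, the fibroblast genes PDGFRB and COL3A1 had 0 to 2, the acinar gene PRSS1 had 0 or 1, and the endocrine genes CHGA and NEUROD1, the acinar gene AMY2A and the endothelial receptor gene KDR had 0 in all 4 libraries. Exceptions included CD68, a lysosomal protein, at 25.2 and 49.3 CPM in the controls and the collagen gene COL1A1 at 25.5 and 31.1 CPM. Another was EGFL7, at 38.7 and 34.9 CPM. The neuronal tubulin gene TUBB3 read 78.4 and 91.1 CPM and the neurofilament gene NEFL 18.1 and 17.2 CPM. CD68, COL1A1, EGFL7 and TUBB3 had overlapping groups, and NEFL lay above in sgMETTL13 at 19.1 and 20.5 CPM. Of the 5 neural and embryonic kidney genes tested, 1 lay above and 1 below. The endothelial list held 0 above and 2 below of 6 tested, and the fibroblast list 0 above and 1 below of 3. All genes had 5.11% above and 6.84% below. SOX9, a transcription factor of pancreatic ducts and progenitors and the 1 tested gene of the acinar and endocrine list, read 62.4 and 82.98 CPM in sgControl against 54.6 and 48.6 CPM in the sgMETTL13 libraries, below the controls. In bulk RNA, fewer cells of a type and less RNA per cell cannot be told apart. Among germline genes that tumours can switch on, MAGEA4 read 317 and 285 CPM against 328 and 388 CPM, MAGEA3 106 and 118 CPM against 103 and 130.1 CPM and MAGEB2 141 and 154 CPM against 140.4 and 138 CPM. The genes with the largest share of control counts were ACTB, EEF1A1, GAPDH, SLC7A5, ACTG1, KRT17, RPLP0, PKM, ENO1, RPS2, EEF2, PABPC1, PPIA, HSPA8 and RPS6, which encode cytoskeletal, translational and glycolytic proteins, an amino acid transporter, a prolyl isomerase and a chaperone. A share of counts also depends on transcript length, so these genes are in no order of level.

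Serum-response transcripts were present in every library 2 h after serum. All 24 immediate early transcription factors in the table were tested, and 8 had at least 100 CPM in both controls. EGR1, a zinc finger factor induced through the serum response factor, read 42.03 and 70.5 CPM against 53.1 and 59.1 CPM. FOS read 5.97 and 8.04 CPM against 5.98 and 7.58 CPM and its relative FOSL1 329 and 613 CPM against 288 and 452 CPM, and MYC read 652 and 1096 CPM against 692 and 852 CPM. In these 4 genes the groups overlapped, and the spread between the controls was wide. Replicate 2 lay above replicate 1 each time, in sgMETTL13 as in sgControl. Over the 24 factors, the median log2 difference of replicate 1 minus replicate 2 was -0.36 in sgMETTL13 and -0.52 in sgControl. Over all genes tested it was -0.01 and 0.005. THBS1, a secreted matrix protein, read 921 and 1063 CPM against 996 and 952 CPM, and DUSP4, a phosphatase that acts on ERK, read 723 and 759 CPM against 674 and 672 CPM.

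The 250 bases before the EGR1 start in RefSeq (GRCh38.p14, chr5:138465229-138465478, plus strand) are shown because EGR1 is a textbook serum gene. Capitals mark matches to the CArG box, the letters bound by the serum response factor, which began 105 and 83 bases before the start. Searched on both strands, such a match was in 1.14% of 27305 RefSeq promoters of this length and in 2 of 19 immediate early genes that have an entry. A match is a description of letters only.
EGR1: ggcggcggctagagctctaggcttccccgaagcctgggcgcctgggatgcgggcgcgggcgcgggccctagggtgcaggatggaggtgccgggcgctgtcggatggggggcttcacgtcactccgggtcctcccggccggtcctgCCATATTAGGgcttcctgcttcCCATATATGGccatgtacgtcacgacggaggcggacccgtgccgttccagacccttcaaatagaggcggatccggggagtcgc

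No mRNA passed the test between the groups. The edgeR quasi-likelihood test called 0 of 12468 genes (0%) at an adjusted p below 0.05, and 100 genes had an unadjusted p under 0.05. The counts called by DESeq2 and by limma voom were likewise 0. With 2 libraries a group this does not show that mRNA levels were alike. What follows therefore describes positions of libraries and gives values, and no gene below is called changed. Both sgMETTL13 libraries lay above both controls in 637 genes (5.11%) and below them in 853 (6.84%). With labels put on 4 libraries at random, 2 against 2, groups would separate with a probability of 0.333, both directions together. The counts of separated genes therefore do not by themselves mark genes as changed. Upper-quartile scaling gave 469 above and 1165 below. With 1 library left out these shares rose, since a group of 1 library separates more easily. Without sgMETTL13 replicate 1 they were 36.8% above and 32.4% below, and without sgMETTL13 replicate 2, 42.8% and 42.7%. Without sgControl replicate 1 they were 22.3% and 23.4%, and without sgControl replicate 2, 11.3% and 12.2%.

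**Figure D1:**
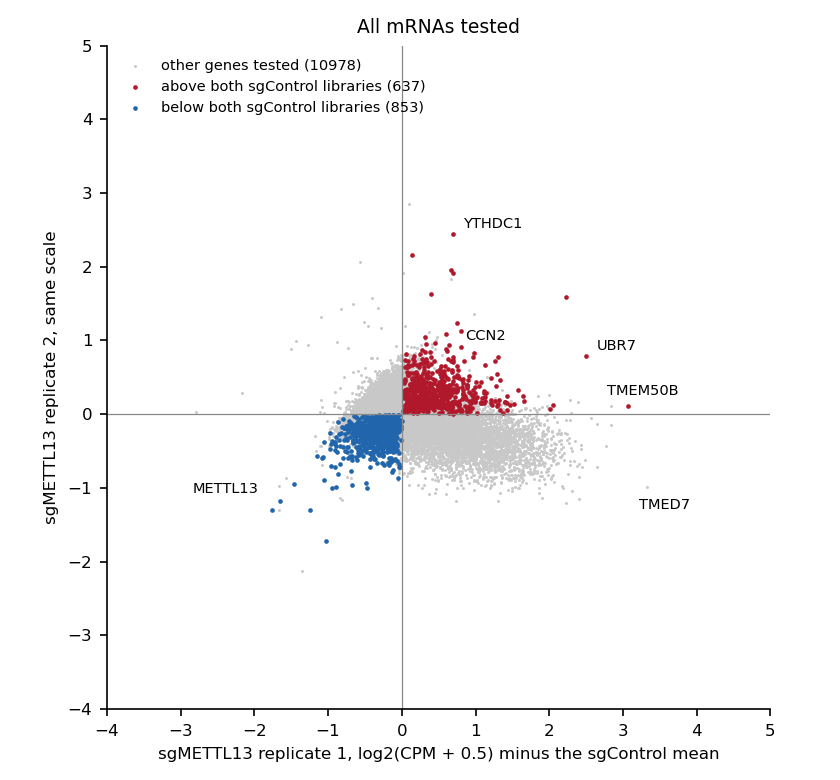
Each point is 1 of 12468 mRNAs, placed by its log2(CPM + 0.5) in sgMETTL13 replicate 1 (horizontal) and replicate 2 (vertical) minus the mean of the 2 sgControl libraries. Red points are the 637 genes above both sgControl libraries, blue points the 853 below both, and grey points to the lower right are genes higher in replicate 1 but not in replicate 2.

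Most of these genes were separated by little. The gap, taken as the log2 ratio of the closest libraries of the 2 groups after adding 0.5 CPM, had a median of 0.09 among the genes above and 0.08 among those below. It was over 0.5 in 14 genes above and 11 below, and over 1 in none above and in 2 below, METTL13 and PADI3. Separation was also most frequent at the lowest counts. With the genes cut into 5 classes of equal size by mean CPM, 11.03% lay above and 11.3% below in the lowest class. The share above then fell from class to class, to 2.73% in the highest. The share below was 6.34%, 4.29% and 5.50% in the classes between and 6.74% in the highest, so it did not fall steadily. The genes named next are the 14 with the widest gap in each direction among those with a mean of at least 5 CPM.

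Genes above the controls included several secreted growth factors and serum-induced genes. CCN2, a matricellular protein and YAP target, read 58.3 and 67.6 CPM in sgControl against 124 and 112 CPM in the sgMETTL13 libraries (log2 fold change 0.91, SE 0.359). CCN1, its relative, read 215 and 247 CPM in sgControl against 355 and 388 CPM in the sgMETTL13 libraries (log2 fold change 0.68, SE 0.334). EDN1, the precursor of the vasoconstrictor peptide endothelin, read 22.4 and 24.1 CPM in sgControl against 39.3 and 36.7 CPM in the sgMETTL13 libraries (log2 fold change 0.71, SE 0.409). In these 3 genes the replicates of each group differed by less than the gap between the groups, and a wide gap is what the genes were picked by. Ligands of the EGF receptor followed. HBEGF read 153 and 151 CPM in sgControl against 221 and 207 CPM in the sgMETTL13 libraries (log2 fold change 0.50, SE 0.334), and AREG read 309 and 308 CPM in sgControl against 641 and 403 CPM in the sgMETTL13 libraries (log2 fold change 0.76, SE 0.356). For AREG the controls were nearly equal while the sgMETTL13 replicates differed by 0.67 on the log2 scale, more than the gap of 0.38. INHBA, a subunit of activin, read 19.3 and 18.5 CPM in sgControl against 48.4 and 26.3 CPM in the sgMETTL13 libraries, again with replicate 1 far above replicate 2.

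**Figure D2:**
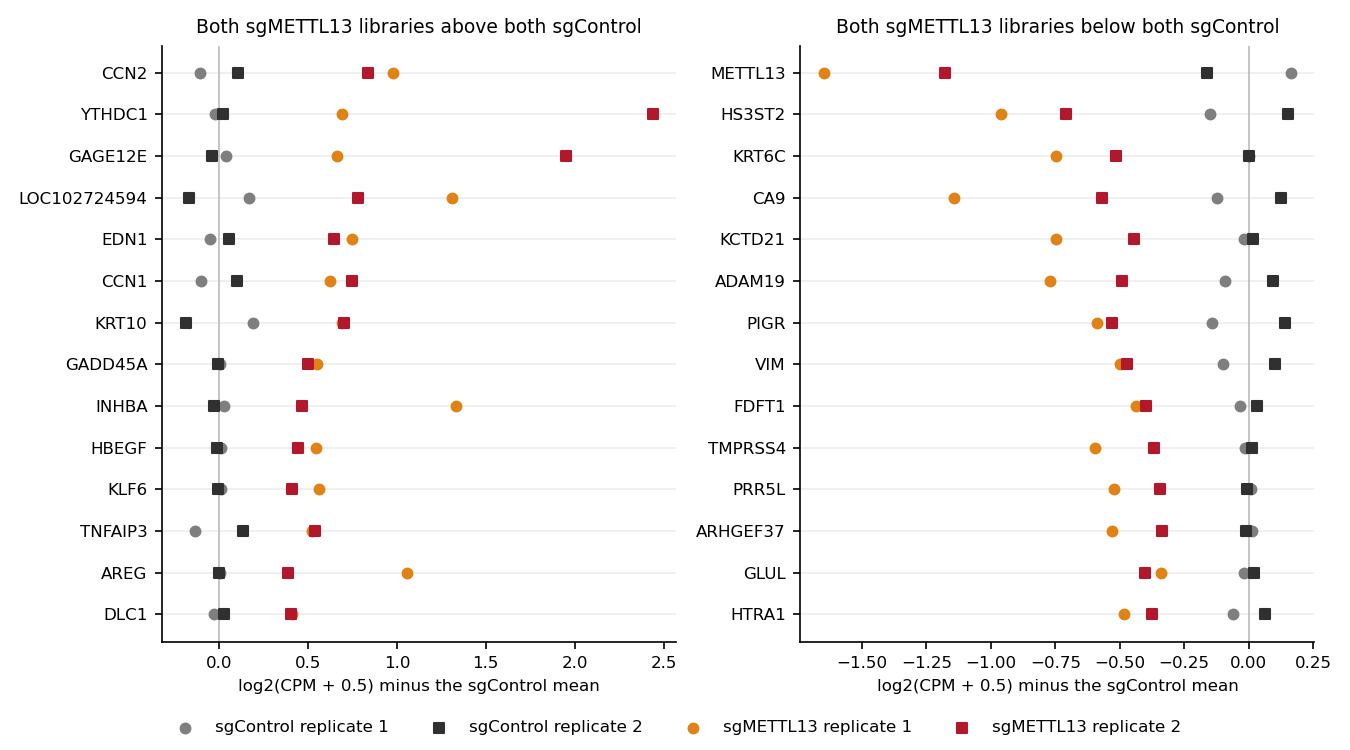
Points give each library's log2(CPM + 0.5) minus the mean of the 2 sgControl libraries for the 14 genes with the widest gap above (left) and below (right), with circles for replicate 1 and squares for replicate 2. CCN2, CCN1, EDN1 and TNFAIP3 show both sgMETTL13 libraries together and away from the controls, whereas YTHDC1, GAGE12E, INHBA and AREG have 1 sgMETTL13 library far from the other.

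Regulators of the stress and serum response lay above as well. TNFAIP3, which limits NF-kB signalling, read 67.9 and 81.9 CPM in sgControl against 107 and 108 CPM in the sgMETTL13 libraries (log2 fold change 0.53, SE 0.357). KLF6, a zinc finger transcription factor of the immediate early class, read 80.6 and 79.6 CPM in sgControl against 118 and 106 CPM in the sgMETTL13 libraries, and GADD45A, a growth arrest gene, read 29.9 and 29.7 CPM in sgControl against 43.9 and 42.3 CPM in the sgMETTL13 libraries. In these 3 genes the replicates of each group differed by less than the gap between the groups. KRT10, a keratin of differentiating epidermis, read 31.8 and 24.3 CPM in sgControl against 45.2 and 45.6 CPM in the sgMETTL13 libraries, and DLC1, a GTPase-activating protein, read 4.39 and 4.58 CPM in sgControl against 6.10 and 6.08 CPM in the sgMETTL13 libraries. YTHDC1, a nuclear reader of methylated adenosine, read 2.56 and 2.65 CPM in sgControl against 4.50 and 16.3 CPM in the sgMETTL13 libraries and so rested mainly on replicate 2. GAGE12E, a cancer-testis antigen gene, read 4.601 and 4.33 CPM in sgControl against 7.37 and 18.7 CPM in the sgMETTL13 libraries, and LOC102724594 read 9.34 and 7.27 CPM in sgControl against 21.1 and 14.5 CPM in the sgMETTL13 libraries. Both have near-identical copies, treated further on.

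The 250 bases before the starts of CCN2 (chr6:131951373-131951622, minus strand) and AREG (chr4:74444886-74445135, plus strand) in RefSeq (GRCh38.p14) are shown as examples of the matricellular and the EGF-family genes above the controls, each holding a motif of a known regulator. Capitals mark GGAATG, the core bound by TEAD factors, in CCN2, where it began 169, 104 and 95 bases before the start. In AREG they mark TGACGTCA, the cyclic AMP response element, which began 65 bases before the start. Counting both strands, GGAATG or its reverse complement CATTCC was in 11.9% of all 27305 promoters of this length and in 9.17% of 10245 genes tested with an entry. It was in 9.57% of 512 genes above the controls with an entry and in 10.2% of 685 below. TGACGTCA, which reads the same on both strands, was in 1.77% of all promoters, in 2.95% of the genes tested, in 4.30% of those above and in 1.90% of those below. The AP-1 site, TGACTCA or TGAGTCA, went the other way. It was in 2.55% of the genes tested, in 1.17% of those above and in 3.94% of those below. These shares are descriptions and were not tested.
CCN2: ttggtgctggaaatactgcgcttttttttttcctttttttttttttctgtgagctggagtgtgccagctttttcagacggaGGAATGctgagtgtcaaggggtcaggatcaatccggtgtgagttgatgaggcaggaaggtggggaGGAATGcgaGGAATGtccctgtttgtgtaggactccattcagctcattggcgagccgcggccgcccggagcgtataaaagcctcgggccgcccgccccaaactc
AREG: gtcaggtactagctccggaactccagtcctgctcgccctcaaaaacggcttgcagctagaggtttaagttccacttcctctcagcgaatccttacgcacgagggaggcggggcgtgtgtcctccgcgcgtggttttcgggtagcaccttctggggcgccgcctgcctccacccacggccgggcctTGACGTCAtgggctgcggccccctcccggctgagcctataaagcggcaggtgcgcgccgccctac

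Genes below the controls other than METTL13 came from several functions. CA9, the carbonic anhydrase induced by hypoxia, read 19.1 and 22.8 CPM in sgControl against 9.19 and 13.9 CPM in the sgMETTL13 libraries (log2 fold change -0.86, SE 0.450). FDFT1, the squalene synthase of cholesterol synthesis, read 366 and 383 CPM in sgControl against 277 and 284 CPM in the sgMETTL13 libraries (log2 fold change -0.42, SE 0.329). GLUL, glutamine synthetase, read 247 and 254 CPM in sgControl against 198 and 189.8 CPM in the sgMETTL13 libraries (log2 fold change -0.37, SE 0.332). FDFT1 and GLUL had replicates that nearly coincided in each group. VIM, the intermediate filament of mesenchymal cells, read 33.3 and 38.4 CPM in sgControl against 25.2 and 25.6 CPM in the sgMETTL13 libraries (log2 fold change -0.50, SE 0.409), and KRT6C, a keratin of stratified epithelium with close relatives KRT6A and KRT6B, read 16.5 and 16.5 CPM in sgControl against 9.61 and 11.4 CPM in the sgMETTL13 libraries. PIGR, which carries immunoglobulins across epithelia, read 7.48 and 9.20 CPM in sgControl against 5.34 and 5.58 CPM in the sgMETTL13 libraries.

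Proteins that act at the cell surface or outside it made up part of the rest. HS3ST2, which sulfates heparan sulfate chains, read 5.92 and 7.42 CPM in sgControl against 3.17 and 3.86 CPM in the sgMETTL13 libraries (log2 fold change -0.92, SE 0.439). The protease genes ADAM19, TMPRSS4 and HTRA1 read 7.43 and 8.52 CPM in sgControl against 4.46 and 5.51 CPM in the sgMETTL13 libraries, then 10.3 and 10.5 CPM against 6.72 and 7.95 CPM and 6.19 and 6.79 CPM against 4.50 and 4.89 CPM in the same order of groups. In each of the 3 both sgMETTL13 values were the lowest of the 4. KCTD21, a substrate adaptor of a ubiquitin ligase, read 15.5 and 15.8 CPM in sgControl against 9.12 and 11.4 CPM in the sgMETTL13 libraries. PRR5L, an mTORC2-associated protein, read 6.38 and 6.31 CPM against 4.27 and 4.89 CPM, and ARHGEF37, a predicted guanine nucleotide exchange factor, read 6.62 and 6.50 CPM against 4.39 and 5.09 CPM. Apart from METTL13, CA9 and HS3ST2, the log2 fold changes of these 14 genes lay between -0.37 and -0.68, each with a standard error of 0.328 or more.

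A stricter description, chosen after the values were seen, kept genes whose gap was larger than the range within either group. It held 110 genes above (0.882% of those tested) and 194 below (1.56%), of which 43 and 118 had a mean of at least 5 CPM. Among the 43 above, beside 10 of the 14 named, were the interferon-induced GTPase MX1 at 33.04 and 35.1 CPM against 43.6 and 48.3 CPM, the ERK feedback inhibitor SPRY2 at 17.2 and 19.8 CPM against 26.4 and 23.8 CPM, the insulin receptor substrate IRS2 at 25.7 and 30.1 CPM against 35.6 and 35.4 CPM and the growth factor BMP2 at 21.3 and 22.5 CPM against 29.8 and 26.3 CPM. These were among the next in order of gap, as were C3orf52, TM2D3, CMC1 and ADAMTS1. Among the 118 below were 13 of the 14 named and, following them, PITPNC1, the TGF-beta family ligand GDF11 at 97.4 and 116 CPM against 77.8 and 79.5 CPM, the eIF2B subunit gene EIF2B2 at 42.1 and 45.6 CPM against 34.1 and 34.4 CPM, SNRNP40 and the Argonaute gene AGO1 at 66.00 and 68.5 CPM against 52.9 and 54.2 CPM. CCNE1, which encodes cyclin E1, read 17.7 and 17.6 CPM against 13.4 and 14.7 CPM, and ANXA2, a calcium-dependent membrane-binding protein, read 1434 and 1434 CPM against 1158 and 1213 CPM. The genes of this paragraph were picked after their values were seen.

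Gene lists were described by how many members lay above or below, beside the 5.11% and 6.84% of all genes, and by the median log2 fold change, which was 0.04 over all genes tested. The lists share members and were chosen with earlier results known, so nothing is called particular to a list, and no member of any list passed the test over all genes. Among 16 tested secreted and other serum-response genes, 8 lay above (50.0%) and 0 below, with a median of 0.47. The 8 were CCN2, CCN1, EDN1, HBEGF, AREG, INHBA, TNFAIP3 and LIF, a cytokine of the interleukin-6 family that read 103 and 126 CPM against 128 and 183 CPM. EREG, an EGF receptor ligand, read 267 and 240.2 CPM against 763 and 261 CPM, with 1 sgMETTL13 library within the range of the controls. PLAU, PLAUR, TGFA, THBS1, VEGFA and GDF15 had groups that overlapped. With any 1 library left out, 9 to 13 of the 16 lay above and 0 to 3 below, where all genes had 11.3% to 42.8% above and 12.2% to 42.7% below.

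Immediate early transcription factors held 7 of 24 above (29.2%) and 0 below, with a median of 0.20. Those above were NR4A1, KLF6, EGR3, IER5, MAFF, ATF3 and FOSL2. NR4A1, an orphan nuclear receptor, read 141 and 170.1 CPM against 196 and 301 CPM, and EGR3 read 5.46 and 10.3 CPM against 13.7 and 10.7 CPM. IER5 read 84.00 and 58.1 CPM against 84.5 and 117 CPM, so that sgControl replicate 1 and sgMETTL13 replicate 1 nearly touched, and MAFF read 134 and 130.4 CPM against 136 and 206 CPM, also separated by a narrow margin. The count moved with the scaling and with the libraries. Upper-quartile scaling left 3 above, where all genes had 3.76% above, and scaling by library total 4, where all genes had 4.49%. Without sgControl replicate 1, 6 lay above and 9 below, and without sgControl replicate 2, 17 lay above and 0 below, where all genes had 22.3% and 23.4%, then 11.3% and 12.2%. Without sgMETTL13 replicate 1 the counts were 14 and 0, beside 36.8% and 32.4% of all genes. Without sgMETTL13 replicate 2 they were 8 and 6, lower shares than the 42.8% and 42.7% of all genes.

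**Figure D3:**
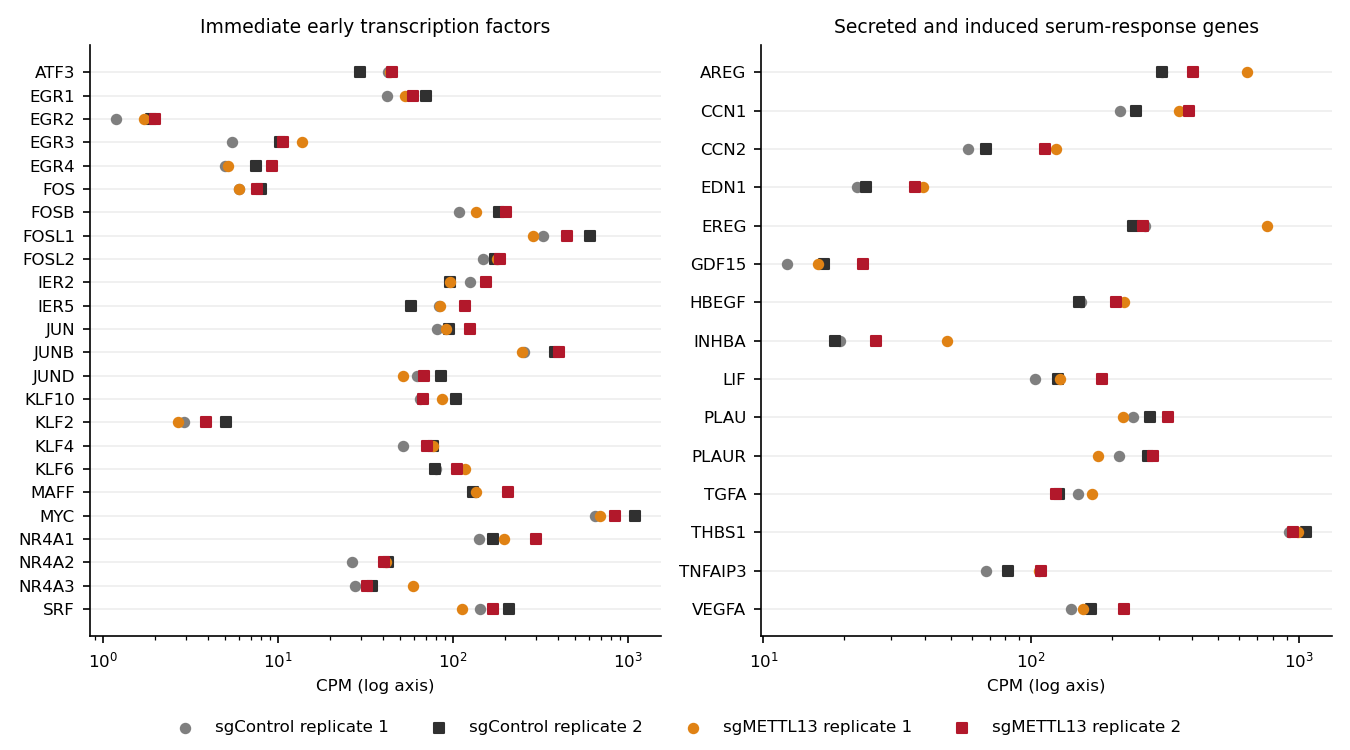
Each row is a gene of the immediate early transcription factor list (left, 24 genes) or the serum-response list (right, 15 of the 16 genes), with the CPM of the 4 libraries on a log axis, in alphabetical order. CCN1, CCN2, EDN1 and HBEGF show the sgMETTL13 points to the right of both sgControl points, while FOS, EGR1, FOSL1, JUNB and MYC show the groups mixed.

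ERK feedback and output genes lay on both sides of the controls. Among 17 ERK genes 3 lay above, DUSP6 at 73.9 and 101 CPM against 129 and 112 CPM, SPRY2 and DUSP5 at 119 and 133 CPM against 151 and 164 CPM, and 1 below, DUSP4, with a median of 0.04. DUSP6 and DUSP5 encode phosphatases of ERK. Upper-quartile scaling gave 2 above and 3 below, where all genes had 3.76% above and 9.34% below. SPRED1, an inhibitor of RAS signalling, read 15.8 and 13.6 CPM against 44.01 and 11.9 CPM, DUSP7 97.8 and 154 CPM against 76.6 and 105 CPM and PHLDA1 281 and 366 CPM against 528 and 332 CPM, none with separate groups. Of 18 YAP/TEAD targets CCN1, CCN2 and the kinase gene LATS2, at 36.1 and 41.9 CPM against 47.2 and 46.05 CPM, lay above and 0 below, with a median of 0.09. The targets F3 and NT5E read 858 and 876 CPM against 1237 and 876 CPM and 68.2 and 63.00 CPM against 112 and 50.2 CPM, and ANKRD1, a muscle ankyrin repeat protein, read 38.2 and 42.4 CPM against 48.7 and 27.5 CPM, each with overlap. None of 19 genes of the RAS pathway core lay apart from the controls.

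NF-kB targets and inflammatory cytokines held 6 of 21 above and 0 below, with a median of 0.36. They were the cytokine genes IL6, at 1.86 and 1.35 CPM against 2.66 and 3.34 CPM, and IL11, at 8.42 and 7.08 CPM against 8.74 and 13.1 CPM, the chemokine genes CXCL2 and CXCL3, at 1.53 and 1.44 CPM against 2.56 and 2.29 CPM and 1.94 and 2.02 CPM against 3.17 and 3.19 CPM, the inhibitor gene NFKBIA, at 67.3 and 93.5 CPM against 96.8 and 110.0 CPM, and TNFAIP3. The interleukin-1 and CXCL8 genes did not separate. IL1A read 192 and 146 CPM against 564 and 134 CPM, CXCL8 24.8 and 20.2 CPM against 69.9 and 18.9 CPM and BIRC3, an inhibitor of apoptosis, 10.3 and 6.98 CPM against 36.1 and 6.61 CPM, each high in sgMETTL13 replicate 1 alone, and IL1B read 344 and 431 CPM against 357 and 407 CPM. Requiring a mean of 100 counts left 16 members tested and 3 of them above, beside 3.90% of all genes. Without sgMETTL13 replicate 1, 13 lay above and 3 below, beside 36.8% and 32.4% of all genes, and without replicate 2, 11 and 8, beside 42.8% and 42.7%. Interferon-stimulated genes held 3 of 22 above, MX1, IFI6 at 14.6 and 13.97 CPM against 17.9 and 25.98 CPM and OAS2 at 40.1 and 38.96 CPM against 50.5 and 41.9 CPM, and 0 below, with a median of 0.30. ISG15, a ubiquitin-like modifier, and IFI44L read 108 and 66.8 CPM against 91.8 and 144 CPM and 4.98 and 4.67 CPM against 14.3 and 3.71 CPM, with overlap.

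ATF4 targets of amino acid metabolism held 4 of 25 above and 0 below, with a median of 0.18. PSAT1 and PSPH of serine synthesis read 507 and 377 CPM against 686 and 533 CPM and 91.2 and 86.6 CPM against 107 and 106 CPM, STC2, a secreted glycoprotein, read 175 and 147 CPM against 197 and 242 CPM, and the small stress protein NUPR1 read 4.06 and 3.56 CPM against 5.09 and 7.23 CPM. SLC7A11, the cystine transporter, read 45.6 and 38.4 CPM against 169 and 44.4 CPM, with the control range holding sgMETTL13 replicate 2. ATF4 itself read 265 and 342 CPM against 228 and 297 CPM. Of 18 p53 targets 2 lay above, GADD45A and the death receptor gene TNFRSF10B, at 178 and 158 CPM against 182 and 210.3 CPM, and 0 below, with a median of 0.19. CDKN1A, the cell cycle inhibitor p21, read 141 and 177 CPM against 108 and 162 CPM, while RRM2B, PMAIP1 and BBC3 read 11.5 and 7.61 CPM against 41.9 and 5.76 CPM, 12.1 and 9.15 CPM against 24.3 and 11.9 CPM and 4.47 and 3.52 CPM against 4.39 and 7.88 CPM, with overlap in each.

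Cholesterol synthesis went the other way in count, with 3 of 20 below and 0 above and a median of -0.06. Among those below, NSDHL, a sterol dehydrogenase, read 42.4 and 44.9 CPM against 32.3 and 40.8 CPM, and FDFT1 is given above. SC5D and HMGCS1 read 26.9 and 24.6 CPM against 78.3 and 12.5 CPM and 247 and 119.8 CPM against 473 and 105 CPM, both high in sgMETTL13 replicate 1 and lowest in replicate 2. Among 24 glycolysis and hypoxia genes 3 lay above, ANKRD37 at 7.48 and 3.76 CPM against 9.99 and 9.15 CPM, the peptide hormone gene ADM at 66.03 and 65.6 CPM against 69.1 and 97.8 CPM and HK2 at 193 and 181 CPM against 195 and 226 CPM, and CA9 lay below. EGLN3, a prolyl hydroxylase induced by hypoxia, and ALDOC, an aldolase, read 17.4 and 13.6 CPM against 24.96 and 17.1 CPM and 93.96 and 123 CPM against 66.4 and 104 CPM, with overlap. Epithelial markers held 2 of 19 below, CDH1 at 219 and 299 CPM against 213 and 219 CPM and DSP at 520.1 and 517 CPM against 496 and 416 CPM, the genes of E-cadherin and desmoplakin, and 0 above, with a median of -0.11. CLDN1, EPCAM, JUP and TJP1 had log2 fold changes of 0.43, 0.31, -0.44 and -0.55, with groups that overlapped. Mesenchymal markers held 2 of 12 above, ZEB1 at 0.188 and 0.144 CPM against 0.486 and 0.349 CPM and TAGLN at 5.14 and 5.59 CPM against 5.62 and 9.77 CPM, and 3 below, VIM, MMP2 at 0.323 and 0.530 CPM against 0.296 and 0.274 CPM and TWIST2 at 10.1 and 11.3 CPM against 8.68 and 9.77 CPM. ZEB1 and MMP2 were below 1 CPM in every library.

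These list counts changed with the sgMETTL13 library that was kept, as did those of all genes. With replicate 2 alone, where 36.8% of all genes lay above and 32.4% below, interferon-stimulated genes had 16 above and 2 below of 22, ATF4 targets 16 and 1 of 24, p53 targets 10 and 6 of 18, cholesterol synthesis 5 and 9 of 20 and glycolysis and hypoxia 16 and 4 of 24. With replicate 1 alone, where all genes had 42.8% and 42.7%, the counts were 10 and 5, 10 and 14 (of 25), 9 and 8, 8 and 10, and 7 and 16 in the same order. The medians of ATF4 targets ran from -0.21 to 0.32 with 1 library left out, those of glycolysis and hypoxia genes from -0.35 to 0.19, those of epithelial markers from -0.29 to 0.11 and those of immediate early factors from -0.03 to 0.35, so none of these 4 lists held 1 sign. Secreted serum-response genes kept a median of 0.37 to 0.63, and other lists kept their sign as well. The medians ran from 0.17 to 0.41 for NF-kB targets, from 0.15 to 0.38 for interferon-stimulated genes and from 0.12 to 0.34 for p53 targets. Those of YAP/TEAD targets ran from 0.05 to 0.17 and those of cholesterol synthesis from -0.32 to -0.03.

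**Figure D4:**
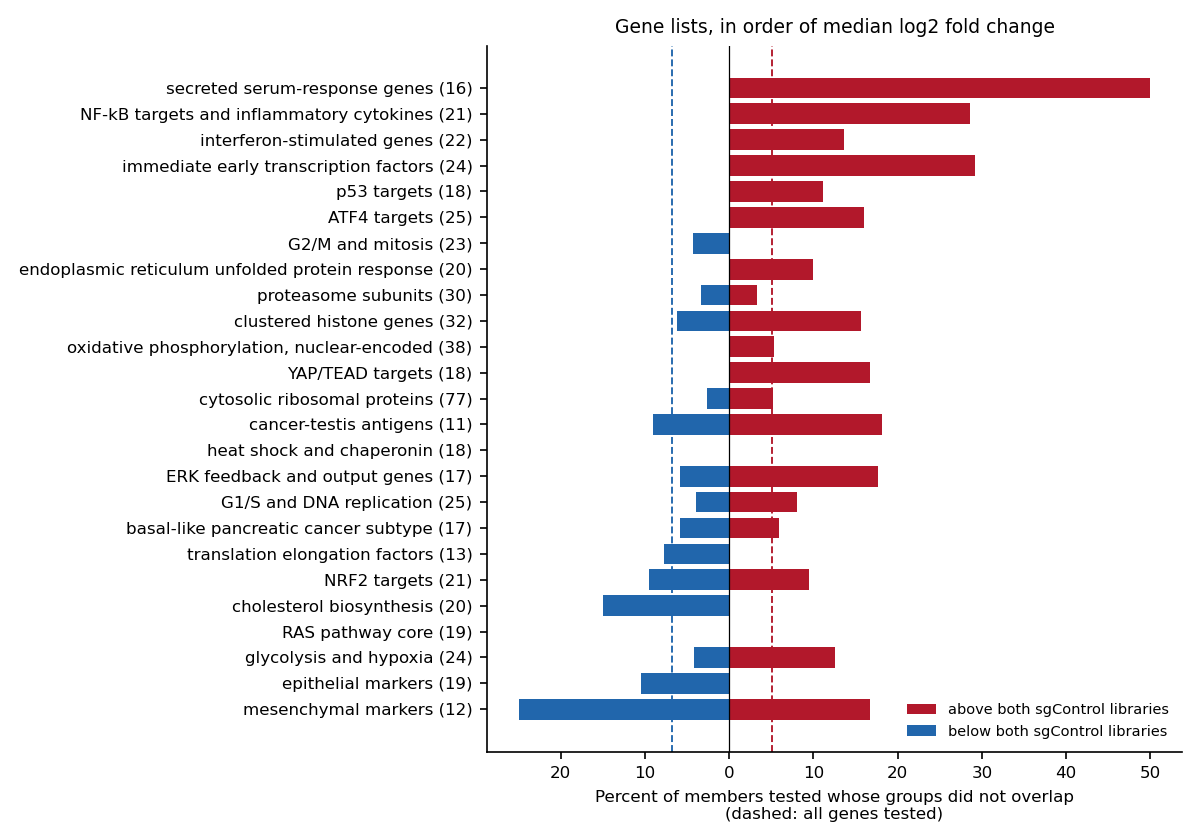
Bars give the percent of each list's tested members that lay above (red, right) or below (blue, left) both sgControl libraries, for lists with at least 10 members tested (number in brackets), sorted by median log2 fold change. Dashed lines mark all genes tested, 5.11% above and 6.84% below, and the longest bar is that of the serum-response genes at 50.0%.

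Basal-like subtype genes held AREG above and SPRR1B, a cornified envelope protein at 5.62 and 8.38 CPM against 3.44 and 4.76 CPM, below among 17. The basal genes S100A2 and LY6D read 681 and 333 CPM against 560.2 and 802 CPM and 20.2 and 22.7 CPM against 14.1 and 21.3 CPM, with overlap. Large complexes gave small counts with all 4 libraries. Cytosolic ribosomal proteins held 4 of 77 above and 2 below (median 0.09), nuclear-encoded oxidative phosphorylation 2 of 38 above and 0 below (0.09) and proteasome subunits 1 above and 1 below of 30 (0.10). Their counts turned on single libraries, as did those of all genes. Ribosomal proteins had 36 of 78 above and 2 below without sgControl replicate 1, where all genes had 22.3% above and 23.4% below. Without sgMETTL13 replicate 1 they had 53 of 77 above and 9 below, beside 36.8% and 32.4% of all genes. Without sgMETTL13 replicate 2 they had 15 of 78 above and 32 below, beside 42.8% and 42.7%. Their medians in that order were 0.32, 0.29 and -0.07. Oxidative phosphorylation genes had 23 of 38 above and 0 below without sgControl replicate 1, beside 22.3% and 23.4% of all genes. Without sgControl replicate 2 they had 2 above and 8 below, beside 11.3% and 12.2%. The medians were 0.37 and -0.03. Heat shock and chaperonin genes held 0 of 18 in either direction. In mitosis 1 of 23 genes lay below and 0 above, and in DNA replication and the G1/S transition 2 of 25 lay above and 1 below. Of 65 genes of the histone clusters, most of whose mRNAs lack a poly(A) tail, 32 were tested, 5 lay above and 2 below.

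Among the 5 genes with the smallest p, METTL13 was the only one with a mean of at least 20 CPM. PADI3, an enzyme that converts arginine to citrulline, read 1.70 and 2.41 CPM against 0.570 and 0.524 CPM, on 63 and 50 counts against 27 and 21. UBR7, a chromatin-bound ubiquitin ligase, read 1.48 and 1.83 CPM against 11.6 and 3.22 CPM, and TMEM50B read 0.188 and 0.241 CPM against 5.49 and 0.274 CPM. For UBR7 and TMEM50B sgMETTL13 replicate 1 was far above replicate 2. NDE1, a partner of cytoplasmic dynein, had counts of 26 and 7 in the controls and of 1 and 0 with the METTL13 guide. NDE1 overlaps MYH11 and TMEM50B overlaps IFNGR2 in RefSeq, and it is not stated whether reads were counted by strand.

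Near-identical copies made some values uncertain, since it is not stated how reads that fit several places were counted. LOC102724594 is a copy of U2AF1, a splicing factor gene. The 2 together read 17.5 and 12.1 CPM against 25.5 and 32.4 CPM when scaled by library total, controls first. SULT1A3 and SULT1A4, which encode the same sulfotransferase, showed counts of 210 and 9 against 12 and 19 for the first gene, and of 12 and 8 against 21 and 133 for the second. The 12 GAGE genes summed to 97.3 and 135 CPM against 122 and 134 CPM, so their groups overlapped although GAGE12E alone did not. KRT6C has close relatives in KRT6A and KRT6B, and whether shared reads affected its value was not tested.

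Differences between the sgMETTL13 replicates ran along gene properties. Over genes, the log2 difference between replicates had an SD of 0.847 in sgMETTL13 and 0.365 in sgControl. The median log2 difference of replicate 1 minus replicate 2 was -0.46 in the class with the shortest genomic span, of 5 classes of equal size, and 0.40 in the class with the longest. The same medians in sgControl were -0.02 in both. By GC share of the RefSeq promoter window, known for 10245 genes (82.2%), the median ran from 0.25 in the lowest of 5 classes to -0.25 in the highest. In sgControl it ran the same way over a smaller span, from 0.05 to -0.09. Across genes, the replicate differences of the 2 groups had a Pearson correlation of 0.41. The largest excesses of replicate 1 were in TMED7, a cargo receptor of the secretory pathway at 33.3 and 37.7 CPM against 360.5 and 17.7 CPM, COPS2 at 23.4 and 22.6 CPM against 124 and 10.1 CPM, the mitotic kinase gene TTK at 13.2 and 12.2 CPM against 64.6 and 5.88 CPM and SAMD9 at 26.2 and 29.8 CPM against 150.4 and 15.3 CPM, followed by GMFB, RBIS, PFDN4 and SEPTIN7. The largest excesses of replicate 2 were in INTS3 at 8.72 and 49.7 CPM against 2.62 and 21.5 CPM, LSM14A at 11.2 and 7.27 CPM against 9.67 and 68.5 CPM, LY6E at 12.3 and 13.2 CPM against 8.47 and 54.8 CPM and RNH1 at 22.3 and 39.9 CPM against 6.27 and 36.7 CPM, followed by SBNO2, MROH6, PUF60 and CBS. In the controls, the log2 difference of replicate 1 minus replicate 2 had the same sign in INTS3 (-2.45), RNH1 (-0.83), CBS (-0.23) and LY6E (-0.10), and the opposite sign in SBNO2 (1.03), PUF60 (1.03), MROH6 (0.72) and LSM14A (0.59). The part of these differences in the lists above was not tested.

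**Figure D5:**
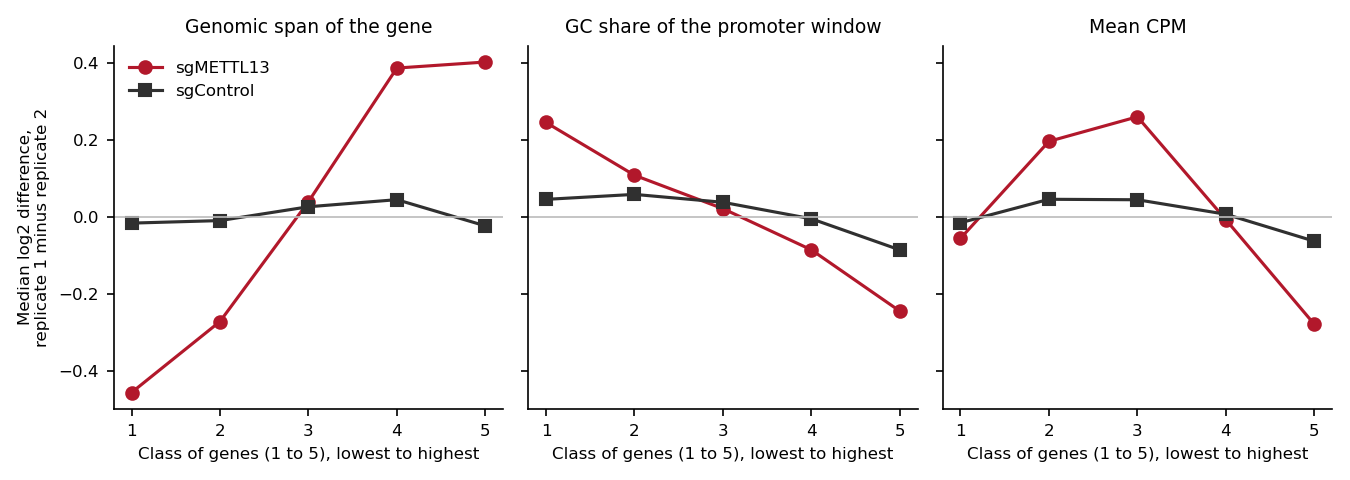
Lines give the median log2 difference between replicate 1 and replicate 2 over genes, in 5 classes of genes ordered by genomic span, by GC share of the promoter window and by mean CPM, for sgMETTL13 (red circles) and sgControl (black squares). The sgMETTL13 line runs from -0.46 to 0.40 with genomic span and from 0.25 to -0.25 with promoter GC, while the sgControl medians lie between -0.09 and 0.06.

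Footprints gave a second value for the same genes, from libraries that may share lysates with the RNA. Over 10714 genes tested in footprints, 958 passed higher (8.94%) and 1287 lower (12.0%). All 14 genes named above the controls were tested in footprints, where 6 passed as higher and 1 as lower. CCN2 footprints read 73.4 and 67.9 CPM in the controls against 133 and 147 CPM with the METTL13 guide (log2 fold change 0.98, edgeR adjusted p = 1.22e-05). CCN1 rose by 1.23, EDN1 by 1.22, AREG by 0.64, TNFAIP3 by 0.61 and GAGE12E, with shared reads, by 1.66. KRT10 went the opposite way, with footprints of 206 and 257 CPM in the controls against 125 and 156 CPM with the METTL13 guide (log2 fold change -0.72, edgeR adjusted p = 0.000559). YTHDC1 read -0.17 (SE 0.139), INHBA 0.07 (SE 0.148), KLF6 0.07 (SE 0.140) and HBEGF 0.28 (SE 0.124), none past the threshold.

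Of the 14 genes named below the controls 12 were tested in footprints, and METTL13 and CA9 passed as lower. CA9 footprints read 12.3 and 14.2 CPM in the controls against 6.20 and 9.66 CPM with the METTL13 guide (log2 fold change -0.74, edgeR adjusted p = 0.0253). VIM read -0.34 (SE 0.144), FDFT1 -0.24 (SE 0.121) and TMPRSS4 -0.61 (SE 0.286), while KRT6C read 0.31 (SE 0.142) and GLUL 0.12 (SE 0.135), none of them past the threshold. PADI3, the other gene with a gap over 1, also passed as lower in footprints (log2 fold change -1.72, edgeR adjusted p = 0.0139).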

How the data were processed

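The table deposited by the authors gives raw read counts by gene symbol. Of its 8 libraries, 4 are RNA and enter the comparison. The submitters' processing notes name the hg38 build, Bowtie 1.2.2, HISAT2 2.0.4, UMI-tools, cutadapt 1.18 and featureCounts, with no order or role. The annotation, the strand setting and the treatment of reads that fit several places are not given in the sources used here. All 14668 symbols matched RefSeq protein-coding genes (GRCh38.p14), and none is mitochondrially encoded.

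Groups followed the labels. edgeR 4.0.16 under R 4.3.3 was run on the RNA counts with filterByExpr, TMM factors, quasi-likelihood F test, Benjamini-Hochberg adjustment over 12468 genes, threshold 0.05, with no replicate block. Standard errors are the log2 fold change divided by the root of its F value. edgeR's common coefficient of biological variation was 0.337, and an exact permutation of 2 against 2 cannot go below 0.333. Footprints were fitted apart in the same way (coefficient 0.0992). The RNA fit was tested on simulated counts, and most of the 2-fold and of the 4-fold changes put into them were not called. Alternatives were DESeq2 1.42.0, limma voom (3.58.1), other scalings and filters, libraries left out, a replicate block and all 8 libraries in one fit.

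Genes named were METTL13, EEF1A1, EEF1A2 and MYC, the 14 widest gaps per direction at a mean of at least 5 CPM, the 5 smallest p, up to 4 members of a list by smallest p and up to 4 by control level, the 15 genes with the most control counts and the 8 largest replicate differences per direction at a mean of at least 20 CPM. Names beyond that, such as list members given because few lay apart, were chosen after their values were seen. The members and the 32 lists were chosen with earlier results of these data known. A level per coding length was planned but not computed, since coding lengths were not used here, so levels are not compared between genes. Values of a few genes that these rules name, or that the lists hold, are not reported here.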

Additional observations from a re-analysis of the deposited data

How the results depend on the processing

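edgeR with upper-quartile scaling called 1 mRNA, NDE1, and RLE, library-total scaling, both other filters, all 8 libraries in one fit, DESeq2 and limma voom called 0. With 1 library left out, where the lone library of its group is assumed to vary like the other group, the calls ran from 0 (without sgControl replicate 1) to 2509 (without sgMETTL13 replicate 2), genes above both controls from 1436 to 5401, genes below from 1543 to 5387, and METTL13 from -1.68 to -1.13, past the threshold only without sgMETTL13 replicate 2. Requiring a mean of 100 counts left 409 genes above, 3.90% of 10495 tested, where the main fit had 5.11% of 12468. With a replicate block 0 genes passed (124 at an unadjusted p below 0.05) and METTL13 was -1.43. Same-numbered libraries deviated together (correlation 0.371), but with 2 pairs the number alone is shared. EEF1A2 turned to -0.055 with upper-quartile scaling, to -0.0089 by library total, and ran from -0.24 to 0.29 with 1 library left out. Leaving out 1 library also turned the sign, for reasons not tested, of these log2 fold changes: JUP (-0.76 to 0.0078), TJP1 (-1.11 to 0.42), S100A2 (-0.00069 to 1.06), SPRED1 (-0.24 to 1.58), NT5E (-0.32 to 0.77), BIRC3 (-0.33 to 2.05), IL1A (-0.26 to 1.74), CXCL8 (-0.19 to 1.63), IFI44L (-0.31 to 1.56), RRM2B (-0.67 to 2.12), SC5D (-0.97 to 1.60), HMGCS1 (-0.74 to 1.37), ALDOC (-0.71 to 0.0016), CLDN1 (-0.065 to 0.83), EPCAM (-0.023 to 0.62) and LY6D (-0.60 to 0.059). Of 968 alternative values for 75 named genes 915 kept sign and side of the threshold, 33 passed it and 20 turned, and the medians of 21 of the 32 lists turned sign with 1 library left out. Levels per coding length were not run. Depth limits genes near 0.144 CPM, and the replicate spread limits the rest.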
